A study of Mus musculus with 45 samples.

Results

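Genomic imprinting is the expression of a gene from 1 parental chromosome only. The choice is set by DNA methylation marks that are laid down in the germ line and kept in the cells of the body, and it is read by nearby promoters, insulators and long noncoding RNAs. Many imprinted genes act on growth, placenta and brain, paternally expressed ones such as Igf2 often promoting growth and maternally expressed ones such as Igf2r, Cdkn1c and Grb10 often restraining it. A list of 43 mouse imprinted genes outside the Meg3 locus was followed here by symbol through the reprogramming of neural progenitors to pluripotent cells. Of these, 37 had a row among the 23575 genes of the gene table, and Zim1, Kcnq1, Magel2, Rasgrf1, Asb4 and Peg13 had no row under their own symbol and are not analysed here. By the common annotation of the expressed allele, 18 of the 37 are expressed from the paternal copy and 17 from the maternal copy. The other 2 are Gnas, whose isoforms differ in their imprinting, and Herc3, the host of Nap1l5. Inpp5f is classed as paternally expressed by a single isoform, while its levels here are those of the whole gene. Some of these genes are imprinted in placenta or brain alone, and the files give the summed level of both copies, so the allele of origin was not measured.

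The cells were mouse neural progenitors that had been made from embryonic stem cells with an Oct4-GFP reporter (the O4G line). They carried doxycycline-inducible reprogramming factors named OKMS or OKS, letters that stand for Oct4, Klf4, Myc and Sox2, or neither (wild type). Factors were induced with 1 µg/mL doxycycline in a medium of fetal bovine serum and LIF, called serum here, and part of the cultures later went into 2i-LIF. That medium holds LIF, CHIR-99021 and PD0325901 in a serum-free base, and no doxycycline is listed for it. In R9 the move was at day 6, and its day is not given for R10. Libraries were read as long cDNA on Nanopore flow cells of 2 kinds, R9 (22 libraries of direct cDNA, after enrichment for poly(A)) and R10 (23 libraries of PCR-amplified cDNA), and each test between groups stays within 1 kind, other than the test of R10 against R9 itself. Progenitors in their own medium gave 4 R9 libraries (wild type 1 and 2, OKMS, OKS) and 4 R10 libraries (wild type 2 and 3, OKMS, OKS). Late serum means OKMS and OKS at days 14 and 20 in R9 (4 libraries) and at day 18 in R10 (2 libraries). In 2i-LIF there were OKMS at day 14 and both systems at day 20 in R9 (3 libraries), and both systems at day 18 in R10 (2 libraries). Embryonic stem cells without factors, also in 2i-LIF, gave 2 R9 libraries (O4G and R1) and 7 R10 libraries (2 of O4G, 2 of R1 clone 3, 3 of R1). Wild-type progenitors held in serum to day 2 gave 1 R9 and 2 R10 libraries. The labels do not say that replicates were separate cultures, so p-values measure the spread between these libraries, and an arm that pools systems, days or lines holds that spread too.

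A library held 447990 to 1390424 reads in R9 and 566599 to 4236442 in R10, so 1 read was worth at most 2.23 CPM in R9 and 1.76 CPM in R10. Markers matched the labels in the end states. The summed CPM of 6 pluripotency markers (Pou5f1, Nanog, Zfp42, Esrrb, Dppa5a, Tdh) was 14.9 to 28.0 in R10 progenitors and 11001 to 13551 in R10 stem cells, and the sum of 6 progenitor markers (Fabp7, Pax6, Nes, Olig2, Sox9, Ptn) was 4978 to 6530.0 and 4.93 to 42.9. Late serum was mixed in this respect, with pluripotency sums of 745 to 9440.3 in R9, lowest in OKS at day 14, and 5676 to 15642 in R10. Reads on mitochondrial genes took 1.56 to 2.35% in 10 R10 libraries (those of day 18 and the numbered stem cells) against 0.124 to 1.64% in the other 13, which hold all R10 progenitors. This share moves with the groups, and its part in the differences was not tested. In R10 all late serum and 2i-LIF libraries are in the first set, with all stem cell libraries but the R1 library without n number. A difference between these 2 sets of libraries therefore cannot be told apart from the R10 differences between these groups and progenitors. Fewer cells of a type and less RNA per cell cannot be told apart in these bulk samples.

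Many imprinted domains are held in their methylated state by the zinc-finger protein ZFP57, which binds the hexamer TGCCGC when it is methylated. RefSeq (GRCm38.p6) gave a start site for 34 of the 43 genes, in 50 windows of 250 bases before the start. The hexamer, read on both strands, was in 8 of these windows (16.0%), of Copg2, Mcts2, Mest, Nap1l5, Plagl1, Zdbf2 and Zim1, and in 8.68% of all 32851 promoter windows. It contains a CpG (C followed by G), and the median over all promoter windows was 6 CpG. The 8 windows with the hexamer had 10 (Nap1l5) to 20 (Mcts2) CpG. The other windows of the listed genes had 0 (Slc22a18) to 40 (Grb10). The part of CpG content in the gap between the 2 shares was not tested. A match is a run of letters and no evidence of binding. The windows before the starts of 4 genes that the results turn on are given 5′ to 3′ on the gene's strand, with the hexamer or its reverse complement GCGGCA in capitals. The windows shown for Mest and Nap1l5 hold it and those for Nnat and Phlda2 do not. Mest has 3 windows. Of these, 1 lacks the hexamer, and the 2 that hold it start 3 bases apart and share their matches, so that they count as 2 of the 8. They lie at chr6:30737800-30738049 (+ strand) for Mest, chr6:58907127-58907376 (- strand) for Nap1l5, chr2:157559828-157560077 (+ strand) for Nnat and chr7:143502525-143502774 (- strand) for Phlda2.
Mest: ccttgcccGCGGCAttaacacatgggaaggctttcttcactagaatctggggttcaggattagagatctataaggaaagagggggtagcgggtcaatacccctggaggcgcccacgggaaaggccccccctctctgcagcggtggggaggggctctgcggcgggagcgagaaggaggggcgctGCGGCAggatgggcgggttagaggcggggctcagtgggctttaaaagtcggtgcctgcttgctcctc
Nap1l5: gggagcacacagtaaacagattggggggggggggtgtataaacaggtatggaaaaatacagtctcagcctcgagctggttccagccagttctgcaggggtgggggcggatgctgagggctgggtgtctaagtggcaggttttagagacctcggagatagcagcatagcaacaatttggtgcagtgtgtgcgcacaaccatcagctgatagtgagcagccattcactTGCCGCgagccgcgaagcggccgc
Nnat: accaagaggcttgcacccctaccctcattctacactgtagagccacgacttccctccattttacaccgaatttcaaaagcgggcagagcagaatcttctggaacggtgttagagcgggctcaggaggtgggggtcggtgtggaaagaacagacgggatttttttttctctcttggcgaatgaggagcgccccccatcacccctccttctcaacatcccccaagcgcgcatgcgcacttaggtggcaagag
Phlda2: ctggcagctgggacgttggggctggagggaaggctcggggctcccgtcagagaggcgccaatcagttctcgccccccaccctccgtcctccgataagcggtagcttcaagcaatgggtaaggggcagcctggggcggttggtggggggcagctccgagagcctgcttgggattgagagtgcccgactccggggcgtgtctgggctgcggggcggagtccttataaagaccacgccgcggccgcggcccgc

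Levels are in CPM (read counts scaled to the library's total), which do not correct for length. Genes are ranked against each other by the deposited TPM, and the measures part by gene. In the second wild-type R10 progenitors Igf2r had 42.9 CPM and 7.75 TPM. Zrsr1, with a leading transcript model of 351 bases, had 22.2 CPM and 72.6 TPM there. Which measure ranks genes better in long reads was not tested. By TPM, Mest (median 1241) and Cd81 (1116) stood highest among these genes in R10 progenitors, and Cd81 (449), Commd1 (274) and Nap1l4 (127) in R10 stem cells, where Mest had a median of 47.1. The order of Commd1 and Nap1l4 depends on this choice. In CPM, Commd1 had 140 to 200 and Nap1l4 194 to 342 in R10 stem cells. In CPM, 22 of the 37 genes were above 0 in all 45 libraries, and 3 never reached 10 CPM: Usp29 (highest 3.22), Zdbf2 (highest 4.31) and Slc22a18 (highest 8.92). The heat map of all libraries shows the broad pattern: Mest, Nnat and Nap1l5 were each brighter in progenitors than in stem cells, Phlda2, Igf2 and Grb10 were on average brighter in late serum than in progenitors, and Copg2, Commd1 and Ube3a changed little in shade.

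**Figure D1:**
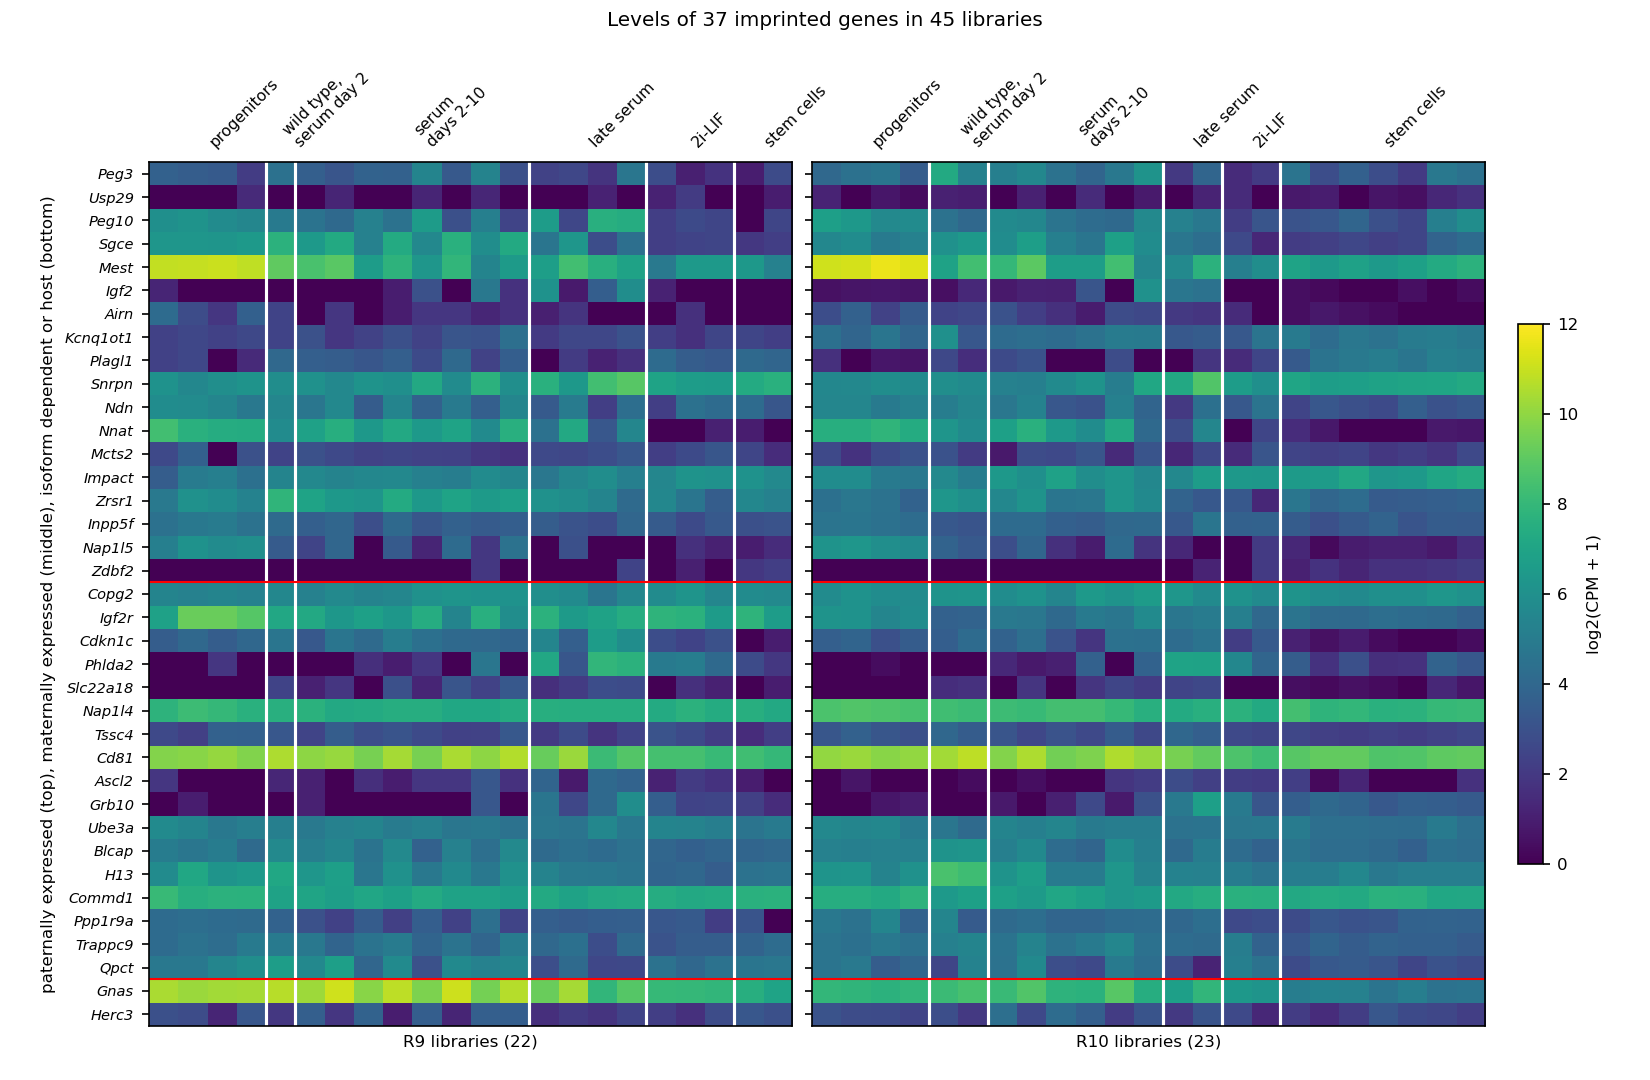
Levels of the 37 genes (rows, italic) in all 45 libraries (columns), R9 at the left and R10 at the right, as log2(CPM + 1) in colour. White lines part the groups and red lines part paternally expressed, maternally expressed and isoform-dependent or host genes. Mest runs from 28.1 to 3167 CPM over the libraries and Phlda2 from 0 to 238 CPM.

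Stem cells were compared with progenitors first. On balance the imprinted genes were lower in stem cells. A difference was called at a limma adjusted p (Benjamini-Hochberg over all genes tested) under 0.05 with a change of at least 1 on the log2(CPM + 1) scale, which understates changes of low genes. In R10, 33 of the 43 genes could be tested and 21 were called, 6 higher and 15 lower, where 45.8% of the 15415 genes tested were called (22.4% higher, 23.5% lower). In R9, 17 of the 33 tested were called, 4 higher and 13 lower, against 36.0% of all genes (17.6% higher, 18.4% lower). The median difference of the genes tested was -0.92 in R10 and -0.74 in R9, and that of all genes tested was 0.01 and -0.07. By parental class, of 16 paternally expressed genes tested in R10, 4 were called higher and 8 lower, and of 15 maternally expressed ones, 2 higher and 6 lower. In R9 it was 3 higher and 8 lower of 16 paternally expressed genes, and 1 higher and 4 lower of 15 maternally expressed ones, where 10 were not called. The calls shared by both chemistries were 12 lower (Airn, Cd81, Cdkn1c, Gnas, Inpp5f, Mest, Nap1l5, Ndn, Nnat, Peg10, Ppp1r9a, Sgce) and 4 higher (Grb10, Plagl1, Snrpn, Zdbf2), and no gene was called in opposite directions. Of the 33 genes tested in both, 31 had the same sign, all but Kcnq1ot1 and Herc3. Markers of other cells moved in this comparison too. Of those tested in R10, 3 of 4 mesenchymal markers were called lower and 1 higher (median -2.13), 2 of 4 astrocyte markers lower and 1 higher (-0.97), 2 of 2 trophoblast markers higher (3.36) and 0 of 1 endoderm marker. In R9 it was 4 of 7 mesenchymal markers lower (-3.30), 2 of 3 astrocyte markers lower and 1 higher (-2.33), 2 of 2 trophoblast markers higher (4.22) and 0 of 1 endoderm marker. Their part in the differences was not tested.

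**Figure D2:**
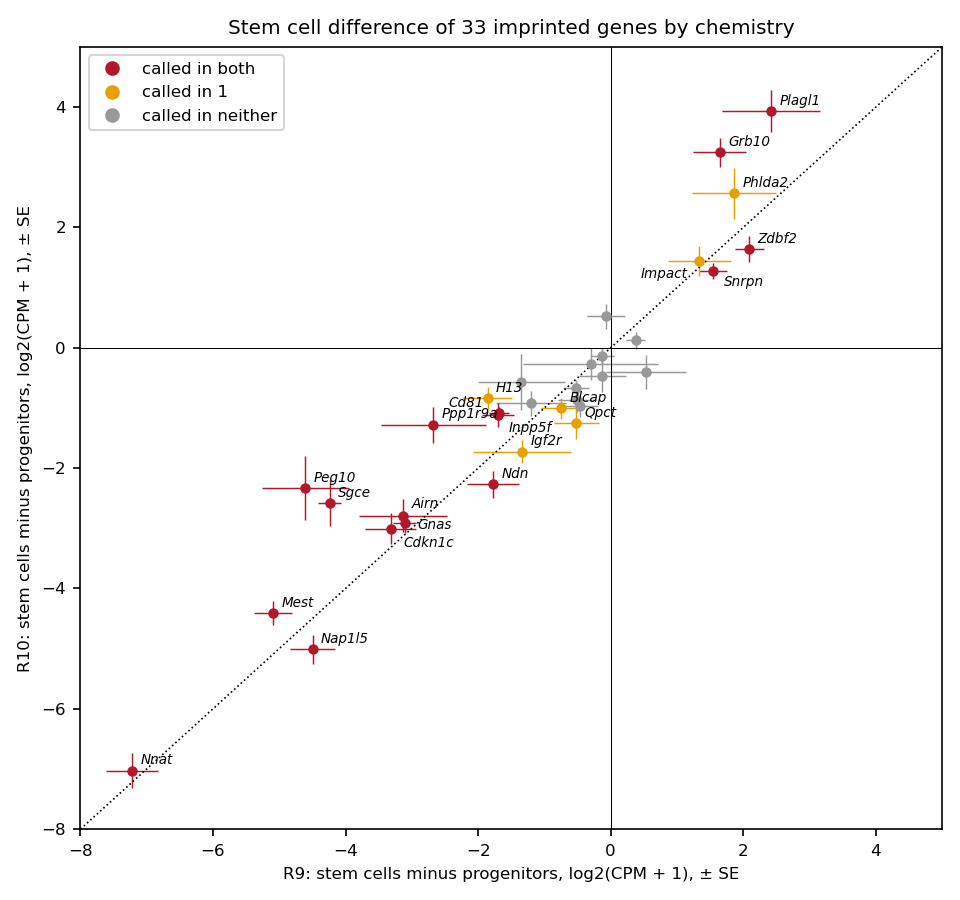
Stem cell minus progenitor difference of the 33 imprinted genes tested in both chemistries, on the log2(CPM + 1) scale, R9 on the x axis and R10 on the y axis, with bars of 1 SE; the dotted line marks equal differences. Genes called in both lie at the lower left (Nnat, Nap1l5, Mest) and the upper right (Plagl1, Grb10).

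The test of R10 against R9 itself called none of 35 genes (limma interaction), where 3.79% of 18341 genes passed the adjusted p alone, with 6 genes at an unadjusted p under 0.05 (Grb10, Cd81, Sgce, H13, Peg10, Plagl1). The smallest adjusted p was 0.062, for Grb10, which stood higher in stem cells by 1.61 ± 0.49 more in R10 than in R9. When the R10 stem cell arm was the R1 library without n number alone, which the fit then assumes to vary like the progenitors, 17 genes were called, 15 of them among the 21. With 1 library left out in turn, 20 of the 21 R10 calls held in each of 11 fits (Blcap was lost in 3) and 11 of the 17 R9 calls held in each of 6, with Plagl1, Grb10, H13 and Airn lost without either stem cell library, Ndn without R1, Plagl1 also without the OKS progenitors and Ppp1r9a without any 1 progenitor library.

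Among paternally expressed genes, Mest, Nnat and Nap1l5 fell in both chemistries. Mest, which encodes an enzyme of the alpha/beta hydrolase fold, lies at chr6:30723547-30748465 and overlaps the end of Copg2 on the other strand. It stood at 1934, 1982, 2089 and 1839.8 CPM in the R9 progenitors and at 83.3 and 38.2 CPM in the O4G and R1 stem cells. In R10 it stood at 3167, 2766, 2242 and 2367 CPM in progenitors and at 86.7 to 206 CPM (median 117) in stem cells. The groups were far apart, with differences of -4.40 ± 0.20 (limma, adjusted p = 4.87e-11) in R10 and -5.09 ± 0.28 (limma, adjusted p = 6.74e-05) in R9. Nnat, neuronatin, a small membrane protein of the endoplasmic reticulum, lies at chr2:157560078-157562522 in an intron of Blcap on the other strand. Its levels were 333, 195, 171 and 165 CPM in R9 progenitors against 0.947 and 0 in stem cells, and 232, 168, 186 and 181 CPM in R10 progenitors against 0 to 1.87 CPM (median 0.656). Nnat was thus close to absent from stem cells, and its differences, -7.03 ± 0.29 (limma, adjusted p = 1.15e-11) in R10 and -7.22 ± 0.39 (limma, adjusted p = 5.95e-05) in R9, were the widest of all 33. Nap1l5, a nucleosome assembly protein of brain nested in Herc3 (chr6:58905233-58907076), had 34.8, 67.8, 53.8 and 59.0 CPM in R9 progenitors and 0.947 and 1.86 in stem cells. In R10 progenitors Nap1l5 had 60.7, 52.5, 69.9 and 78.9 CPM and in stem cells 0.236 to 1.97 CPM (median 1.16). No library overlapped, with -5.01 ± 0.24 (limma, adjusted p = 8.33e-11) in R10 and -4.50 ± 0.33 (limma, adjusted p = 0.000145) in R9.

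Sgce and Peg10 share a promoter region on chromosome 6, with starts 99 bases apart on opposite strands. Sgce (epsilon-sarcoglycan, part of a membrane complex) had 78.9, 78.4, 75.4 and 86.0 CPM in R9 progenitors and 2.84 and 3.72 in stem cells, and 28.9, 37.3, 46.6 and 56.7 CPM against 3.36 to 17.4 CPM (median 4.65) in R10. Peg10, a retrotransposon-derived gene needed for the placenta, had 62.9, 70.7, 53.8 and 43.8 CPM in R9 progenitors and 0 and 4.65 in stem cells. In R10 Peg10 had 48.6, 54.2, 107 and 84.1 CPM in progenitors and 4.65 to 58.1 CPM (median 8.48) in stem cells. Sgce did not overlap between the groups in either chemistry, and Peg10 overlapped in R10, where 1 R1 library exceeded 2 progenitor libraries. The differences of Sgce were -2.58 ± 0.38 (limma, adjusted p = 1.97e-05) in R10 and -4.24 ± 0.17 (limma, adjusted p = 3.23e-05) in R9, and that of Peg10 in R9 was -4.61 ± 0.66 (limma, adjusted p = 0.00188). Peg10 in R10 was called too, at -2.33. Ppp1r9a (neurabin, maternally expressed) of the same cluster had 17.4, 19.4, 17.5 and 16.9 CPM in R9 progenitors and 7.57 and 0 in stem cells. In R10 it had 43.2, 12.6, 26.8 and 22.2 CPM against 5.60 to 12.98 CPM (median 8.71), with 1 overlapping wild-type progenitor library, and its R9 difference was -2.68 ± 0.79 (limma, adjusted p = 0.034).

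Ndn, Airn and Inpp5f, which is classed by a single isoform, were the other genes of the paternal class lower in both chemistries. Ndn, necdin, which restrains division of neurons, had 56.2, 54.2, 43.1 and 27.0 CPM in R9 progenitors against 17.04 and 8.38 in stem cells, and 29.5, 38.2, 43.9 and 44.4 CPM against 4.48 to 11.2 CPM (median 7.01) in R10. Inpp5f, a phosphoinositide phosphatase, had 21.4, 27.1, 31.0 and 21.9 against 6.63 and 7.45 CPM in R9 and 21.3, 17.8, 23.3 and 24.5 against 6.59 to 13.3 CPM (median 9.84) in R10. Neither overlapped, and both were called in both chemistries, Ndn at -2.27 and -1.77 and Inpp5f at -1.12 and -1.70 in R10 and R9. Airn is a long noncoding RNA that silences Igf2r in cis and lies across its start on the other strand. It had 17.4, 5.81, 2.69 and 11.8 CPM in R9 progenitors and 0 reads in both R9 stem cell libraries. Against a floor of 3 reads over those libraries (1.41 CPM) its mean of 9.42 CPM in progenitors was at least 6.69-fold higher. In R10 Airn had 4.13, 10.0, 6.15 and 12.3 CPM in progenitors and 0 to 0.707 CPM (median 0.290) in stem cells, a difference of -2.79 ± 0.27 (limma, adjusted p = 2.45e-07). These levels rest on few reads, 35 at most in a library. Whether reads were counted by strand is not stated, so Airn and Igf2r, and each nested gene and its host, may share reads where exons overlap.

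The 4 paternally expressed genes called higher in stem cells in R10 were Plagl1, Zdbf2, Snrpn and Impact. Plagl1, a zinc-finger transcription factor that restrains growth (chr10:13060504-13131694), had 0.635, 0.574, 2.20 and 0 CPM in R10 progenitors and 9.71 to 36.1 CPM (median 28.2) in stem cells. In R9 Plagl1 had 4.01, 4.84, 0 and 1.69 against 16.1 and 14.0 CPM. The groups did not overlap, with differences of 3.94 ± 0.35 (limma, adjusted p = 7.97e-08) in R10 and 2.43 ± 0.74 (limma, adjusted p = 0.0382) in R9. Zdbf2, a gene with a zinc-finger domain, was at 0 reads in all 8 progenitor libraries, and had 1.12 to 3.28 CPM (median 2.32) in R10 stem cells and 2.84 and 3.72 CPM in R9. With a floor of 3 reads over the progenitors it was at least 7.76-fold higher in R10 and at least 3.41-fold higher in R9. Snrpn, a core protein of the spliceosome, had 68.2, 45.5, 60.6 and 70.8 CPM in R9 progenitors against 163 and 196, and 57.5, 52.8, 46.1 and 47.9 CPM in R10 against 102 to 157 CPM (median 129.7), with no overlap and differences of 1.27 in R10 and 1.55 in R9. Impact, which dampens the amino acid stress kinase GCN2, was called in R10 alone, with 29.5, 27.0, 55.4 and 55.5 CPM against 76.9 to 167 CPM (median 94.2) and a difference of 1.44. In R9 Impact stood at 10.7, 31.0, 35.0 and 20.2 CPM against 68.2 and 48.4, a difference of 1.34 with an adjusted p of 0.0635 (limma).

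Of the maternally expressed genes, 2 members of the insulin and growth pathways went opposite ways. Grb10, an adaptor that inhibits insulin and IGF receptors (chr11:11930508-12038683), had 0.635, 0.861, 0 and 0 CPM in R10 progenitors and 8.99 to 16.3 CPM (median 11.2) in stem cells. R9 Grb10 was 0, 0.968, 0 and 0 against 3.79 and 1.86 CPM, and the groups parted in both. Its difference was 3.25 ± 0.25 (limma, adjusted p = 1.22e-08) in R10 and 1.64 in R9. Cdkn1c (p57, an inhibitor of cyclin-dependent kinases) had 6.67, 10.3, 11.4 and 13.4 CPM in R10 progenitors and 0 to 1.12 CPM (median 0.328) in stem cells. In R9 Cdkn1c had 10.7, 15.5, 10.8 and 15.2 against 0 and 0.931 CPM. Every progenitor library exceeded every stem cell library, with -3.005 ± 0.26 (limma, adjusted p = 7.39e-08) in R10 and -3.32 ± 0.39 (limma, adjusted p = 0.000827) in R9. Igf2r, the receptor that clears IGF2, had 42.9, 56.0, 69.9 and 68.9 CPM in R10 progenitors and 12.1 to 23.5 CPM (median 16.5) in stem cells, called at -1.72. R9 gave 116, 609.8, 619 and 455 against 224 and 97.7 CPM, overlapping through the first wild-type library, and the difference of -1.34 was not called (limma, adjusted p = 0.193). Igf2 itself was at 1.34 CPM or less in all these libraries and was not tested.

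Phlda2, which restrains placental growth, was nearly absent from progenitors (0.318, 0, 0 and 0 CPM in R10 and 0, 0, 2.69 and 0 in R9). In stem cells it had 2.03 to 12.98 CPM (median 6.72) in R10, called at 2.57 ± 0.42 (limma, adjusted p = 5.43e-05), and 5.68 and 2.79 CPM in R9, not called (1.86, limma adjusted p = 0.0563). Cd81, a tetraspanin of the cell surface, was abundant throughout, at 933, 1069.7, 1069 and 1156 CPM in R10 progenitors and 419 to 552 CPM (median 518) in stem cells. In R9 Cd81 had 885, 927, 1089 and 833 against 322 and 256 CPM, with no overlap and differences of -1.09 in R10 and -1.69 in R9. Blcap, the host of Nnat, had 37.2, 37.0, 37.3 and 35.6 CPM in R10 progenitors and 11.6 to 23.9 CPM (median 18.4) in stem cells (-1.01). Qpct, which forms pyroglutamate at protein ends, had 10.8, 14.6, 23.3 and 27.5 CPM against 4.65 to 9.86 CPM (median 7.01) in R10 (-1.25). Neither overlapped in R10, and in R9 Blcap ranged over 16.9 to 32.3 against 14.2 to 15.8 CPM and Qpct over 26.7 to 57.3 against 24.6 to 26.1, not called. H13, signal peptide peptidase and host of Mcts2, was called in R9 alone, with 53.5, 141, 74.0 and 89.4 CPM against 21.8 and 23.3 (-1.86). In R10 H13 had 39.7, 66.9, 73.4 and 74.8 against 26.7 to 46.6 CPM (median 34.0), and the difference of -0.83 was under the threshold of 1.

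Gnas encodes the stimulatory G protein alpha subunit and several imprinted isoforms from other starts (chr2:174284320-174346744). It had 1431, 1169, 1291 and 1337 CPM in R9 progenitors and 183 and 124 in stem cells, and 210.2, 234, 243 and 233 CPM against 22.1 to 38.4 CPM (median 32.9) in R10. The groups did not overlap, with differences of -2.91 ± 0.17 (limma, adjusted p = 6.15e-10) in R10 and -3.11 ± 0.17 (limma, adjusted p = 6.69e-05) in R9. Separate rows join reads of neighbours, of which Cd81_Tssc4 ranged from 9.39 to 56.4 CPM over the libraries, so part of the Cd81 and Tssc4 reads stand outside their own rows. The remaining 11 genes tested were not called in either chemistry: Commd1, Copg2, Herc3, Kcnq1ot1, Mcts2, Nap1l4, Peg3, Trappc9, Tssc4, Ube3a and Zrsr1. Their R10 differences ranged from -0.97 to 0.52. Ascl2, Igf2, Slc22a18 and Usp29 were too low to be tested in either chemistry.

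Late serum cultures, still with doxycycline, were compared with progenitors next. Phlda2, Igf2 and Grb10 stood higher, and Mest, Nap1l5 and Nnat lower, in both chemistries. In R9, 35 genes were tested against progenitors and 17 called, 7 higher and 10 lower, where 20.0% of 14111 genes were called (9.70% higher, 10.3% lower). In R10, 36 were tested and 14 called, 6 higher and 8 lower, where 36.2% of 15995 were (15.7% higher, 20.5% lower), so that the R10 share of the imprinted genes (38.9%) was near that of all genes. Medians were -0.41 for the imprinted genes and -0.03 for all genes in R9, and -0.54 and -0.17 in R10. Called higher in both chemistries were Ascl2, Grb10, Igf2, Phlda2, Slc22a18 and Snrpn. Called lower in both were Mest, Nap1l5, Ndn, Nnat and Qpct. After centring each library on its median the R10 calls were 7 higher and 5 lower.

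**Figure D3:**
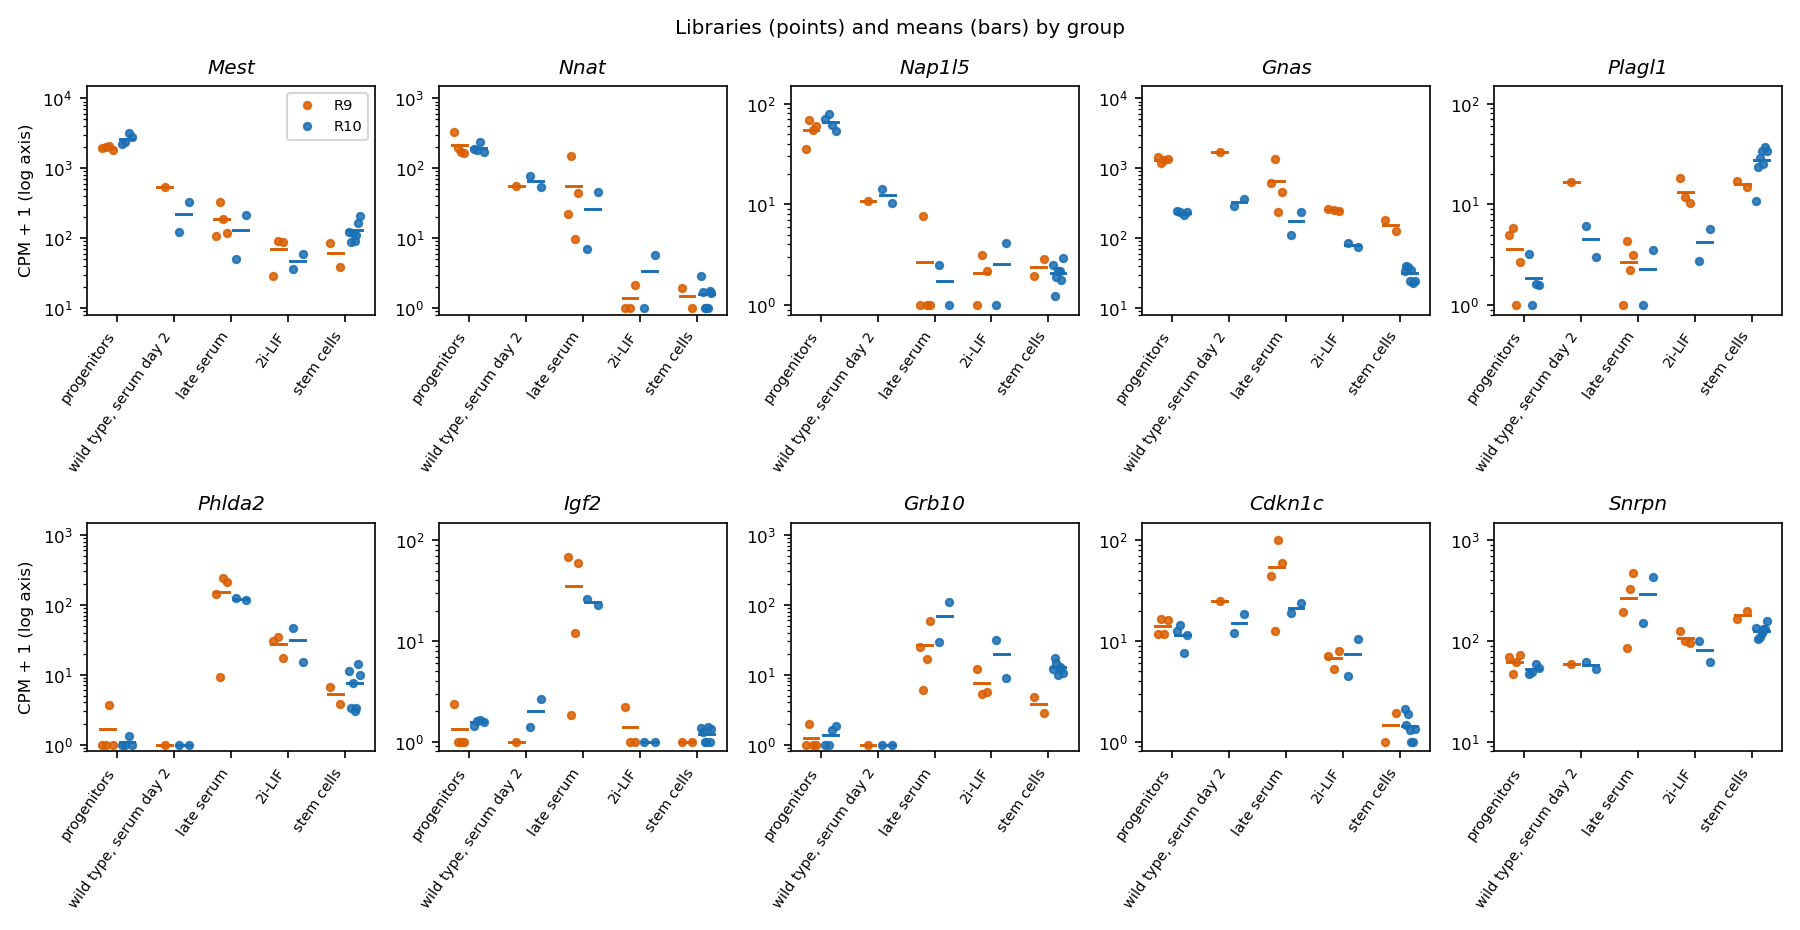
Levels of 10 imprinted genes by group, as CPM + 1 on a log axis, with a point per library (R9 orange, R10 blue) and a bar at the mean of each group in each chemistry. Phlda2 in late serum lies at 8.27 to 238 CPM, above all progenitor libraries, and the OKS library of day 14 is the low point of R9 late serum for Phlda2, Grb10, Snrpn and Igf2.

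Phlda2 rose most. In R9 late serum it stood at 143, 8.27, 238 and 208 CPM (OKMS day 14, OKS day 14, OKMS day 20, OKS day 20), against 0, 0, 2.69 and 0 in progenitors. In R10 it stood at 123 and 118 CPM in OKMS and OKS of day 18, against 0.318, 0, 0 and 0. Its groups did not overlap, with 6.03 ± 0.92 (limma, adjusted p = 0.000864) in R9 and 6.82 ± 0.36 (limma, adjusted p = 5.59e-05) in R10. Igf2, the fetal growth factor (chr7:142650766-142666816), stood at 67.5, 0.827, 11.1 and 58.2 CPM in the same order in R9 and 25.2 and 21.8 in R10, against 0 to 1.34 and 0.439 to 0.635 CPM in progenitors. Its OKS library of day 14 overlapped the R9 progenitors, and the differences were 3.81 ± 0.98 (limma, adjusted p = 0.0158) in R9 and 3.97 ± 0.34 (limma, adjusted p = 0.000198) in R10. Grb10 stood at 24.3, 4.96, 16.0 and 58.2 CPM in R9 late serum and 28.2 and 109 in R10, against 0 to 0.968 and 0 to 0.861 CPM. It did not overlap, with 4.06 ± 0.64 (limma, adjusted p = 0.00109) in R9 and 5.42 ± 0.59 (limma, adjusted p = 0.000543) in R10.

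Ascl2, a transcription factor of the trophoblast, stood at 13.7, 0.827, 16.0 and 12.9 CPM in R9 late serum and 5.94 and 3.84 in R10, against 0 to 2.67 and 0 to 0.584 CPM in progenitors. It overlapped in R9 through OKS of day 14 and not in R10, with 2.69 ± 0.75 (limma, adjusted p = 0.0234) and 2.37 ± 0.35 (limma, adjusted p = 0.00175). Slc22a18, a transporter, stood at 2.11, 3.31, 6.16 and 5.75 CPM in R9 and 4.45 and 5.12 in R10, with 0 reads in all 8 progenitor libraries. Against a floor of 3 reads over the progenitors this was at least 4.50-fold higher in R9 and at least 16.9-fold higher in R10. Snrpn stood at 193, 84.4, 325 and 466.4 CPM in R9 and 151 and 430.2 in R10, against 45.5 to 70.8 and 46.1 to 57.5 CPM. All late libraries of Snrpn exceeded all progenitors (1.87 in R9 and 2.30 ± 0.38 in R10, limma adjusted p = 0.00275 in R10). Cdkn1c was called higher in R9 alone, at 43.3, 11.6, 98.5 and 58.9 CPM against 10.7, 15.5, 10.8 and 15.2 (1.62), with an overlap through OKS of day 14. In R10 Cdkn1c had 17.8 and 23.05 CPM against 6.67, 10.3, 11.4 and 13.4, 0.93, not called.

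Mest, Nnat, Nap1l5, Ndn and Qpct, all high in progenitors, fell in late serum. Mest had 106, 330.1, 188 and 118 CPM in R9 and 49.0 and 210.0 in R10, below all progenitors (-3.55 ± 0.31 and -4.67 ± 0.50, limma adjusted p = 2.15e-05 and 0.000485). Nnat had 21.1, 148, 8.62 and 43.8 CPM in R9 and 5.94 and 44.8 in R10, where OKS of day 14 came closest to the progenitors (-2.59 ± 0.65 and -3.42 ± 0.63, limma adjusted p = 0.0137 and 0.00457). Nap1l5 had 0, 6.62, 0 and 0 CPM in R9 and 1.48 and 0 in R10 (-5.005 ± 0.64 and -5.38 ± 0.40, limma adjusted p = 0.000299 and 0.000128). All 3 kept apart from the progenitors. Qpct had 6.33, 16.5, 4.93 and 5.03 CPM in R9 and 5.94 and 1.28 in R10, with -2.19 ± 0.43 (limma, adjusted p = 0.00366) and -2.25 ± 0.56 (limma, adjusted p = 0.0145). Ndn had 9.50, 30.6, 3.69 and 19.4 CPM in R9, overlapping the OKS progenitors at 27.0, and 2.97 and 20.5 in R10 (-1.73 and -2.10). Airn (R9 late serum 1.06, 2.48, 0 and 0 CPM) was called lower in R9 at -2.42, with Sgce (-1.79), H13 (-1.50), Inpp5f (-1.36) and Gnas (-1.26). Nap1l4, a histone chaperone (-1.18), Peg10 (-1.12) and Igf2r (-1.04) were called lower in R10. Peg10 was not lower in R9, where it had 99.2, 4.96, 192 and 170.3 CPM in late serum against 62.9, 70.7, 53.8 and 43.8 in progenitors. All of these late libraries but OKS of day 14 exceeded all progenitors, and the difference of 0.20 was not called.

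Both sums of markers differ among the late serum libraries. The OKS library of day 14, with the lowest pluripotency sum (745 CPM), also had the lowest Phlda2, Igf2, Grb10, Ascl2, Snrpn, Cdkn1c and Peg10 of R9 late serum, and the highest Mest, Nnat, Nap1l5, Qpct, Ndn and Gnas. Without it 19 genes were called in R9, and 11 when OKMS of day 14, OKS of day 20, the second wild-type or the OKMS progenitors were left out. Against OKMS and OKS progenitors alone 7 were called. Of the 17 calls, 9 held in each of the 8 fits (Grb10, H13, Mest, Nap1l5, Nnat, Phlda2, Qpct, Slc22a18, Snrpn), and of the 14 in R10, 10 held in each of 6, all but Igf2r, Ndn, Peg10 and Qpct. Of a list of 6 trophoblast markers 3 had a row (Krt7, Tfap2c, Hand1), and their sum was 2.48 to 48.5 CPM in R9 late serum, 46.4 to 64.2 in R9 stem cells and 0 in R9 progenitors. In R10 it was 23.05 to 48.97 CPM in late serum, 24.2 to 56.8 in stem cells and 0 to 1.17 in progenitors. Of 6 endoderm markers 2 had a row (Gata4, Gata6), and their sum was 0 to 16.0 CPM in R9 late serum against 0 to 1.69 in R9 progenitors, and 2.56 to 16.3 against 0 to 1.76 in R10. The sum of 5 astrocyte markers (Gfap, Aqp4, Clu, S100b, Aldh1l1) was 39.4 to 456 CPM in R9 late serum against 81.6 to 142 in progenitors, and 50.4 to 97.3 against 45.1 to 193 in R10. Its members went both ways: Clu had 35.7 to 423 CPM in R9 late serum against 3.87 to 9.36 in progenitors and 35.6 to 85.8 against 2.54 to 14.0 in R10, and S100b had 0 to 11.6 against 54.8 to 131 CPM in R9 and 0 to 1.28 against 31.1 to 174 in R10. Of the astrocyte markers tested, 1 was called higher and 1 lower of 3 in R9, and 2 higher and 1 lower of 5 in R10. The sum of 8 mesenchymal markers was 23.4 to 199 CPM against 87.5 to 276 in R9, and 16.3 to 61.5 against 21.6 to 150 in R10. These also went both ways, with 2 called higher and 2 lower of 7 tested in R9, and 1 higher and 1 lower of 7 in R10. Col1a1, a collagen chain, had 6.16 to 105 CPM in R9 late serum against 0 to 8.02 in progenitors. The part of other cell types in the late serum levels was not tested.

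Cells moved to 2i-LIF were set against serum cultures of the same day and system, as pairs. No doxycycline is listed for 2i-LIF, so the change of medium and the absence of doxycycline cannot be told apart. Igf2, Phlda2, Cdkn1c, Peg10 and Nnat were lower in 2i-LIF in R9. In R9, 11 of 34 genes tested were called, 2 higher and 9 lower, where 7.53% of 15482 genes were called (3.60% higher, 3.93% lower). The median was -0.44 for the imprinted genes and -0.04 for all genes. For OKMS day 14, OKMS day 20 and OKS day 20 in turn, Igf2 stood at 67.5, 11.1 and 58.2 CPM in serum and 1.22, 0 and 0 in 2i-LIF. Its difference was -4.81 ± 0.60 (limma, adjusted p = 0.000222). Phlda2 stood at 143, 238 and 208 CPM in serum and 29.3, 33.3 and 16.3 in 2i-LIF, lower in each pair but not at 0 (-2.88 ± 0.28, limma adjusted p = 3.27e-05). Cdkn1c went from 43.3, 98.5 and 58.9 CPM to 6.11, 4.30 and 6.98 (-3.26 ± 0.40, limma adjusted p = 0.000221). Peg10 went from 99.2, 192 and 170.3 CPM to 3.66, 5.37 and 4.66, a like level in all 3 (-4.76 ± 0.32, limma adjusted p = 1.22e-06). Nnat went from 21.1, 8.62 and 43.8 CPM to 0, 0 and 1.16 (-4.03 ± 0.59, limma adjusted p = 0.000812). Nnat and Peg10 were thus close to the stem cell level in 2i-LIF.

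Grb10 had 24.3, 16.0 and 58.2 CPM in serum and 10.99, 4.30 and 4.66 in 2i-LIF (-2.05 ± 0.49, limma adjusted p = 0.0205). Ascl2 had 13.7, 16.0 and 12.9 and 1.22, 3.22 and 2.33 CPM (-2.27 ± 0.55, limma adjusted p = 0.0212), and Snrpn 193, 325 and 466.4 and 125, 97.8 and 94.3 (-1.55 ± 0.27, limma adjusted p = 0.00335). Mest fell too, by 1.12 on the log2 scale. The 2 genes higher in 2i-LIF were Plagl1 and Qpct, both lower in serum in each pair. Plagl1 had 0, 1.23 and 2.16 CPM in serum and 17.1, 10.7 and 9.31 in 2i-LIF (2.76 ± 0.64, limma adjusted p = 0.0171), and Qpct 6.33, 4.93 and 5.03 and 21.98, 15.0 and 22.1 (1.67 ± 0.46, limma adjusted p = 0.0405). Without the day 14 pair 7 genes were called. The 6 calls that held in each of the 3 fits without a pair were Cdkn1c, Igf2, Nnat, Peg10, Phlda2 and Snrpn. Markers of other cells were read in the same pairs. Of those tested in R9, 1 of 3 trophoblast markers was called lower (median -2.34), 1 of 4 mesenchymal (-1.43), 1 of 2 astrocyte (-1.21), 0 of 2 endoderm (-1.70) and 0 of 4 progenitor markers (-0.69). Of 6 stem cell markers 1 was called higher (median 0.92). In R9 2i-LIF the astrocyte sum was 10.5 to 19.3 CPM, the mesenchymal sum 14.0 to 20.8 and the trophoblast sum 30.3 to 36.5. Their part in the differences between media was not tested.

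In R10 the 2 pairs of day 18 gave 2 calls among 37 genes tested, both lower in 2i-LIF, where 1.22% of 15446 genes were called. Igf2 stood at 25.2 and 21.8 CPM in serum and at 0 in both 2i-LIF libraries (fitted difference -4.61 ± 0.85, limma adjusted p = 0.0356), at least 9.45-fold lower against a floor of 3 reads over both. Phlda2 stood at 123 and 118 CPM in OKMS and OKS in serum and 45.8 and 14.1 in 2i-LIF (-2.19 ± 0.44, limma adjusted p = 0.0475). Both genes were lower in 2i-LIF in both systems. In the same pairs 2 of 6 stem cell markers were called higher in 2i-LIF (median 1.53) and 1 of 5 astrocyte markers lower (median 0.38). None was called of 5 progenitor (median -1.96), 6 mesenchymal (-0.45), 3 trophoblast (-0.73) and 2 endoderm markers (-0.57). The part of these was not tested. With 2 pairs the count moved with the method: edgeR called 9 and DESeq2 called 0, and with a pseudocount of 0.25 it was 0.

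Reprogrammed cells in 2i-LIF were next compared with embryonic stem cells in the same medium. In R9, 1 of 34 genes was called where 0.711% of 15479 genes were called. That gene was Phlda2, at 29.3, 33.3 and 16.3 CPM against 5.68 and 2.79 (2.38 ± 0.44, limma adjusted p = 0.0241). The call was lost without any 1 of the 5 libraries. In R10, 7 of 34 genes were called where 9.06% of 15880 were. Plagl1 stood at 1.76 and 4.69 CPM in OKMS and OKS against 9.71 to 36.1 CPM (median 28.2) in stem cells, below all 7 libraries (-2.71 ± 0.42, limma adjusted p = 0.00299). Cdkn1c stood at 3.53 and 9.39 CPM, above all 7 (2.30 ± 0.41, limma adjusted p = 0.00559), and Gnas at 82.9 and 73.5 CPM against 22.1 to 38.4 CPM (median 32.9, difference 1.37 ± 0.25, limma adjusted p = 0.00614). Qpct stood at 35.3 and 21.9 CPM (1.86 ± 0.33, limma adjusted p = 0.00502) and Phlda2 at 45.8 and 14.1 (2.07 ± 0.63, limma adjusted p = 0.0493), both above all stem cells. Zrsr1, a splicing factor, had 8.82 and 1.56 CPM against 9.86 to 25.4 CPM (median 12.8, difference -1.57 ± 0.46, limma adjusted p = 0.0423). Mest had 35.3 and 57.9 CPM, below all stem cells (-1.42 ± 0.30, limma adjusted p = 0.0121). Cdkn1c, Gnas, Plagl1 and Qpct were called in each of 9 fits without 1 library, and Zrsr1, Mest and Phlda2 were not. With O4G as the only stem cell line none was called, with 10 genes at an unadjusted p under 0.05. The counts of that smaller fit were not set against those of all genes. Of these 7 genes R9 called Phlda2 alone. In R9 Plagl1 had 17.1, 10.7 and 9.31 CPM in 2i-LIF against 16.1 and 14.0 in stem cells, a difference of -0.30. Cdkn1c had 6.11, 4.30 and 6.98 against 0 and 0.931 CPM (2.27), and Gnas 263, 253 and 241 against 183 and 124 (0.74). Zrsr1 had 46.4, 24.7 and 10.5 against 45.4 and 37.2 CPM (-0.81). Qpct, at 21.98, 15.0 and 22.1 against 24.6 and 26.1 CPM (-0.37), and Mest, at 28.1, 90.3 and 87.3 against 83.3 and 38.2 (0.10), had the other sign in R9 than in R10.

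Late serum and stem cells differed in few calls in R9 and more in R10. In R9, 1 of 36 genes was called where 1.17% of 16313 genes were called. It was Cdkn1c, at 43.3, 11.6, 98.5 and 58.9 CPM against 0 and 0.931 (4.94 ± 0.80, limma adjusted p = 0.0377). Without the OKS library of day 14, 9 genes were called, 2 without OKMS of day 20, and 0 without any 1 of the other 4. Igf2 in R9 late serum averaged at least 24.4-fold above stem cells, which held 0 reads. In R10, 14 of 37 genes were called, 12 higher and 2 lower in late serum, where 22.2% of 16254 genes were (10.5% higher, 11.8% lower). The median was 0.35 against -0.10 for all genes.

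The R10 day 18 serum values given above exceeded all 7 stem cell libraries for Igf2 (4.38 ± 0.30, limma adjusted p = 1.88e-06), Phlda2 (4.26 ± 0.58, limma adjusted p = 0.000276) and Cdkn1c (3.93 ± 0.37, limma adjusted p = 2.08e-05). Nnat, at 5.94 and 44.8 CPM, stood above the stem cells (3.61 ± 0.61, limma adjusted p = 0.00117). Gnas stood at 108 and 237 CPM (2.40 ± 0.31, limma adjusted p = 0.000194), Grb10 at 28.2 and 109 (2.17 ± 0.40, limma adjusted p = 0.00209) and Slc22a18 at 4.45 and 5.12 (1.995 ± 0.35, limma adjusted p = 0.0016). The other genes called higher were Ascl2 (1.75 ± 0.59, limma adjusted p = 0.0443), Sgce at 25.2 and 19.2 CPM (1.71 ± 0.53, limma adjusted p = 0.0318), Airn, Tssc4 and Snrpn. Airn had 2.97 and 2.56 CPM, 2 reads in each library, against 0 to 0.707 CPM. Tssc4 had 14.8 and 11.5 CPM against 3.49 to 4.92 CPM (median 4.06). The joined row Cd81_Tssc4, which holds more reads, overlapped, at 22.3 and 30.7 CPM against 20.3 to 41.7. Plagl1 was lower, at 0 and 2.56 CPM (-3.78 ± 0.50, limma adjusted p = 0.000247), and so was Kcnq1ot1, the noncoding RNA that silences the Cdkn1c domain, at 8.90 and 10.2 CPM against 17.7 to 32.4 CPM (median 26.6, difference -1.35). In each of 9 fits without 1 library 11 of the 14 were called, all but Ascl2, Sgce and Snrpn. With O4G as the only stem cell line none was called, and 15 genes had an unadjusted p under 0.05. That fit held 2 stem cell libraries, and its counts were not set against those of all genes. All of these arms belong to the R10 set with the higher mitochondrial share, other than the unnumbered R1 library. Markers of other cells moved with these calls: 4 of 5 progenitor markers tested were called higher in late serum, with 2 of 4 mesenchymal, 2 of 4 astrocyte, 1 of 2 endoderm and 1 of 3 trophoblast markers, and 4 of 6 stem cell markers were lower. Their part was not tested.

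Between the stem cell lines, clone 3 of R1 held less Peg10, Sgce, Peg3 and Phlda2 than R1. Of 32 genes tested over the 6 numbered R10 libraries, 4 were called (limma F test over 3 lines), and the largest difference of each was clone 3 below R1, where 3.78% of 14750 genes were called. Peg10 had 35.0 and 58.1 CPM in R1, 6.67 and 4.65 in clone 3 and 8.48 and 13.9 in O4G. Clone 3 minus R1 was -2.81 (adjusted p of the F test = 0.000256). Its neighbour Sgce had 12.98 and 17.4 CPM in R1, 3.77 and 4.65 in clone 3 and 3.77 and 4.93 in O4G (-1.63, limma adjusted p = 0.00458). In both genes both libraries of clone 3 and of O4G stood below both numbered R1 libraries. Peg3, a zinc-finger protein with a role in maternal behaviour, had 26.7 and 21 CPM in R1, 6.09 and 3.10 in clone 3 and 6.12 and 11.6 in O4G (-2.20, limma adjusted p = 0.00302). Phlda2 had 12.98 and 8.86 CPM in R1, 2.03 and 2.32 in clone 3 and 2.36 and 6.72 in O4G (-1.89, limma adjusted p = 0.0196). The R1 library without n number had 7.47 CPM of Peg10 and 3.36 of Sgce, near clone 3 and not near its own line, and 23.9 of Peg3 and 10.5 of Phlda2, near R1. With it among the R1 libraries 0 genes were called, with 6 at an unadjusted p under 0.05, and without the second R1 library 2 were. Each line gave 2 libraries, and clone 3 is a single clone. In R9, with 1 library per line, Peg10 had 0 CPM in O4G and 4.65 in R1.

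Wild-type progenitors, which carry no factors, were also held in serum to day 2. They showed 9 calls among 31 genes tested in R10, 4 higher and 5 lower, where 26.8% of 14688 genes were called, so the imprinted genes' share (29.0%) was near that of all genes. Mest had 3167 and 2766 CPM in wild-type progenitors 2 and 3 and 121 and 325 in serum (-3.89 ± 0.48, limma adjusted p = 0.00488). H13 had 39.7 and 66.9 and 377 and 311 CPM (2.71 ± 0.30, limma adjusted p = 0.00372), the highest H13 of all libraries. Both genes were far outside the spread of either pair. Nap1l5 went from 60.7 and 52.5 to 13.3 and 9.22 CPM (-2.25 ± 0.30, limma adjusted p = 0.00613), Nnat from 232 and 168 to 75.9 and 52.4 (-1.63 ± 0.28, limma adjusted p = 0.0126) and Igf2r from 42.9 and 56.0 to 12.1 and 13.2 (-1.87 ± 0.28, limma adjusted p = 0.00869). Peg10 fell from 48.6 and 54.2 to 21.9 and 15.8 CPM (-1.41). Zrsr1 went from 22.2 and 12.6 to 77.5 and 61.9 CPM (1.98 ± 0.34, limma adjusted p = 0.0121), Sgce from 28.9 and 37.3 to 66.2 and 87.3 (1.19) and Slc22a18, with no read in either progenitor library, was at 1.96 and 2.31. Single R9 libraries gave 542 CPM for Mest, 139 for H13 and 233 for Zrsr1 in wild-type serum, against 1839.8 to 2089, 53.5 to 141 and 28.1 to 65.8 in the R9 progenitors. Phlda2 and Grb10 had no read in any of the 3 wild-type serum libraries. The summed CPM of 5 astrocyte markers (Gfap, Aqp4, Clu, S100b, Aldh1l1) was 2160.1 to 4154 in R10 wild-type serum and 45.1 to 193 in R10 progenitors, with 3 of 5 called higher. Of 6 progenitor markers 3 were called lower (median -0.72), and of 6 mesenchymal markers tested 1 was called higher (median 1.15). The part of these in the changes was not tested. With 2 libraries a side, leaving out 1 left 0 to 2 calls (Mest and Slc22a18 without the third wild-type serum library, 0 without any other).

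The R9 time course places these changes between day 0 and day 20 in serum with factors, with 1 library per system and day. By limma's F test over days 2 to 20 against day 0, with system as a term, 12 of 37 genes were called, 4 with a rise and 8 with a fall as the largest difference, where 10.7% of 19357 genes were called. Mest fell at once: at days 0, 2, 4, 6, 10, 14 and 20 it had 2089, 369.5, 98.1, 77.8, 42.2, 106 and 188 CPM in OKMS and 1839.8, 481, 214, 239.6, 91.5, 330.1 and 118 in OKS, with its largest difference of -4.96 at day 10 (limma, adjusted p = 0.00144). Nap1l5 had 53.8, 4.52, 0, 1.36, 2.81, 0 and 0 CPM in OKMS and 59.0, 14.7, 9.54, 17.4, 22.3, 6.62 and 0 in OKS (-5.84 at day 20, limma adjusted p = 0.0233). Both had fallen by day 2, as in wild-type cells. Phlda2 came late, at 2.69, 0, 2.09, 2.73, 25.3, 143 and 238 CPM in OKMS and 0, 0, 0.954, 0, 0, 8.27 and 208 in OKS (6.86 at day 20, limma adjusted p = 0.00525). Grb10 had 0, 1.13, 0, 0, 8.44, 24.3 and 16.0 CPM in OKMS and 0, 0, 0, 0, 0, 4.96 and 58.2 in OKS (4.99 at day 20, limma adjusted p = 0.024). In both genes OKMS stood above 8 CPM from day 10 on and OKS above 4 CPM from day 14 on, and earlier values were 2.73 CPM or less. Plagl1 was highest early: its largest difference was 2.87 at day 2 (limma, adjusted p = 0.0474), with 0, 11.3, 8.35, 5.46, 4.22, 0 and 1.23 CPM in OKMS and 1.69, 10.7, 11.4, 16.1, 11.2, 3.31 and 2.16 in OKS.

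The other genes called over time were Snrpn (2.55 at its largest), Qpct (-3.08, limma adjusted p = 0.0149), Nnat (-3.03, limma adjusted p = 0.035), Sgce (-2.73, limma adjusted p = 0.00404), Igf2r (-2.63, limma adjusted p = 0.0328), Gnas (-2.003) and Cd81 (-1.40). Igf2r fell early, from 619 to 150.3 CPM by day 2 in OKMS and from 455 to 80.2 in OKS. The count rests on single days: without day 20 it was 2, without day 2 it was 6, and Mest was the only gene called in each of the 6 fits. Over the same days all 6 progenitor markers were called lower and 5 of 6 stem cell markers higher, with 2 higher and 1 lower of 8 mesenchymal, 2 higher and 1 lower of 5 astrocyte and 1 higher of 3 trophoblast markers, and their part was not tested. Igf2 was not called over time. It had 0, 0, 0, 6.82, 26.7, 67.5 and 11.1 CPM in OKMS and 0, 0, 0.954, 0, 2.23, 0.827 and 58.2 in OKS, so that it stood highest at day 14 in OKMS and at day 20 in OKS.

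**Figure D4:**
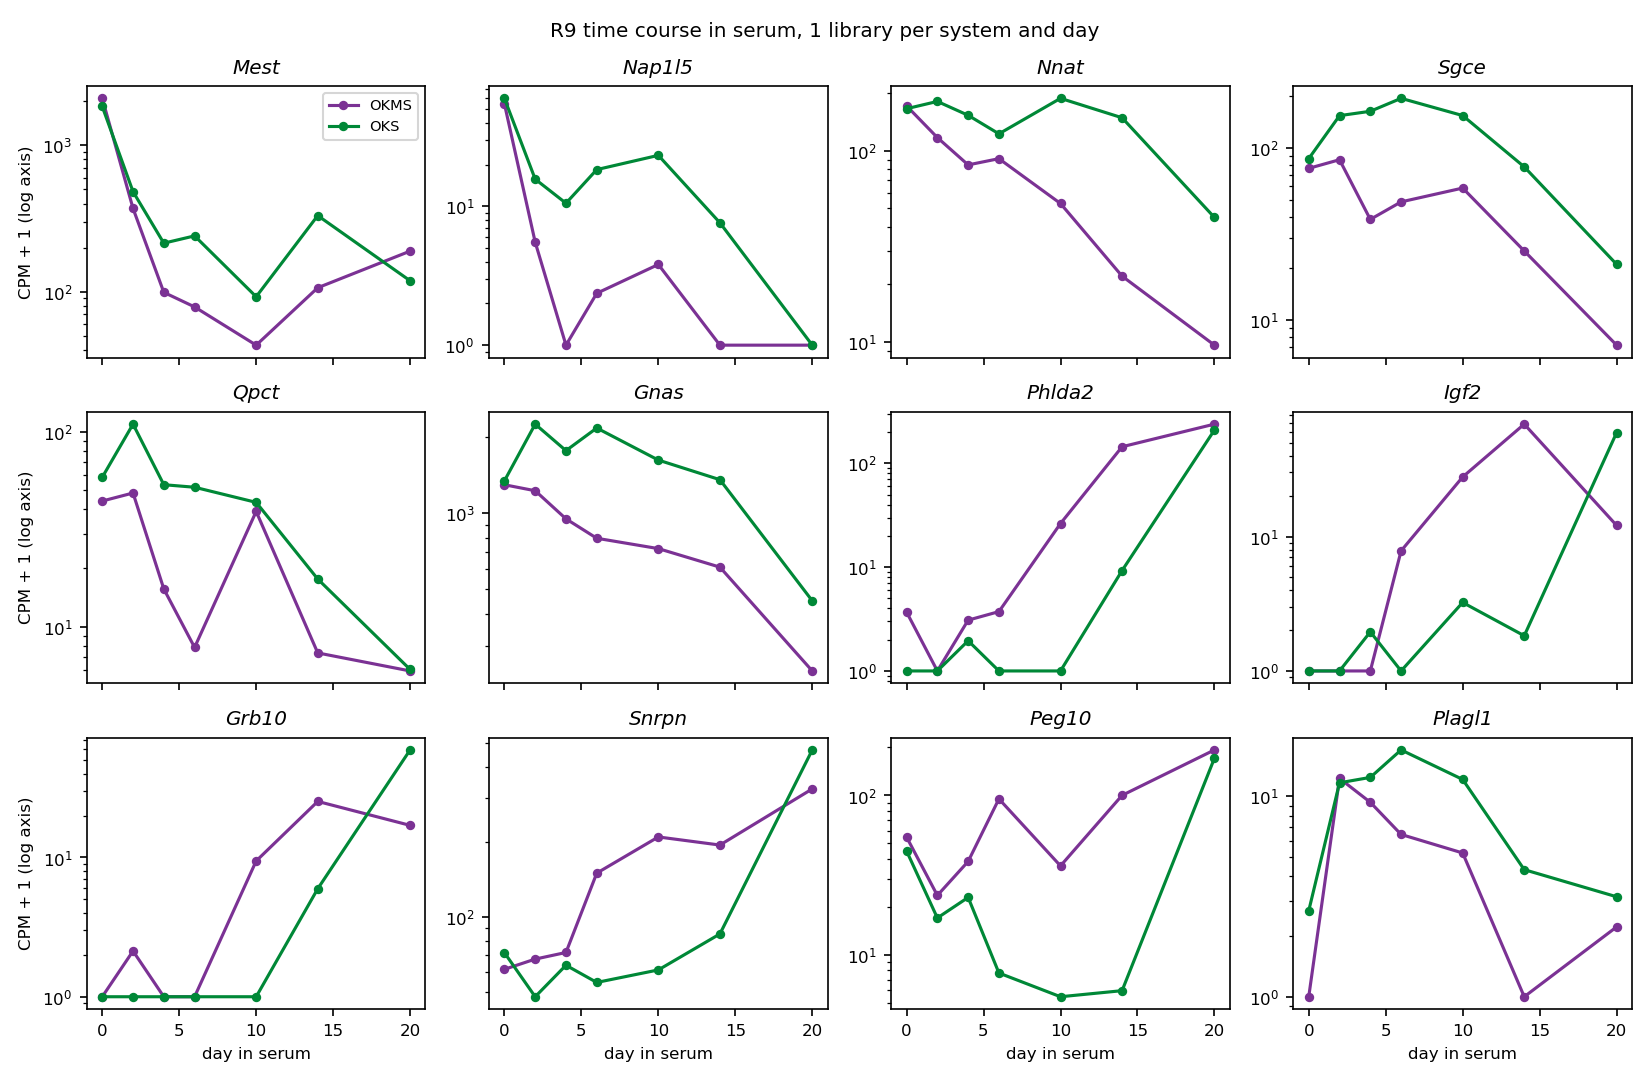
R9 levels of 12 imprinted genes by day in serum with doxycycline, as CPM + 1 on a log axis, in OKMS (purple) and OKS (green), with day 0 the progenitors and 1 library per point. Mest falls within days in both systems, Phlda2 climbs from day 10 on in OKMS and from day 14 on in OKS, and Grb10 is highest at day 14 in OKMS (24.3 CPM) and at day 20 in OKS (58.2 CPM).

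OKMS and OKS were compared over the same days, with day as a block. Each system gave 1 R9 library per day, so its days serve as replicates. The p-values measure how steady a difference was over days, and not the spread between separate cultures of a system. Of 35 genes tested 8 were called, 2 higher and 6 lower in OKMS, where 18% of 14277 genes were called (6.93% higher, 11% lower). The share of the imprinted genes (22.9%) was near that of all genes, which also leaned lower in OKMS. After median centring the split was 3 higher and 5 lower. Peg10 at days 2 to 20 had 22.6, 37.6, 94.2, 35.2, 99.2 and 192 CPM in OKMS and 16.0, 21.9, 6.69, 4.46, 4.96 and 170.3 in OKS, higher in OKMS on 6 of 6 days (1.97 ± 0.48, limma adjusted p = 0.00913). Its neighbour Sgce went the other way, with 84.8, 37.6, 47.8, 57.7, 24.3 and 6.16 CPM in OKMS and 154, 163, 194, 154, 76.9 and 20.1 in OKS, lower on 6 of 6 days (-1.59 ± 0.20, limma adjusted p = 0.000811). These genes start 99 bases apart. The systems were tested in R9 alone. In R10, at days 2, 6 and 18, Peg10 had 53.0, 17.7 and 37.1 CPM in OKMS and 45.5, 16.2 and 26.9 in OKS. Sgce had 56.1, 24.7 and 25.2 CPM in OKMS and 105, 113 and 19.2 in OKS in these R10 libraries. The R10 gaps of Peg10 were thus small, and Sgce was not lower in OKMS at day 18. Over all R9 days together the systems overlapped in each of the 8 genes, and the differences are within days. Phlda2 was higher in OKMS on 5 of 6 days (1.90 ± 0.61, limma adjusted p = 0.0335). Nap1l5 was lower on 5 of 6 days (-2.23 ± 0.50, limma adjusted p = 0.00612), and Ndn (-1.58 ± 0.27, limma adjusted p = 0.00189), Nnat (-1.45 ± 0.28, limma adjusted p = 0.00331), Qpct (-1.19 ± 0.35, limma adjusted p = 0.0222) and Gnas (-1.07 ± 0.16, limma adjusted p = 0.00111) on 6 of 6. In 6 fits without 1 day the count was 5 (without day 6) to 12 (without day 20), and Nap1l5, Ndn, Nnat, Peg10 and Sgce were called in each. Without the day block 0 were called by limma, with 10 at an unadjusted p under 0.05. The pluripotency sum also differs between the systems along the course (745 CPM in OKS at day 14). Markers of other cells moved with the system too: in OKMS 4 of 6 progenitor markers were called lower (median -1.55), as were 4 of 5 astrocyte markers (median -2.14) and 3 of 5 mesenchymal ones (median -1.27), with none of these called higher. Called higher in OKMS were 3 of 6 stem cell markers (median 2.35) and the 1 trophoblast marker tested, Tfap2c (3.44). The part of these in the differences was not tested.

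Long reads also gave the share of each gene's TPM held by its leading transcript. Of 13 imprinted genes that could be tested between R10 stem cells and progenitors, 1 was called at a change of at least 20 points, where 18.4% of 5238 genes were. This was Nap1l4, whose leading transcript, a 574-base noncoding model of 2 exons outside the annotation, took 55.7% ± 6.27 (SD, n = 4) of the gene's TPM in progenitors and 24.0% ± 15.1 (SD, n = 7) in stem cells (-31.7 points, limma adjusted p = 0.0078). The 6 numbered libraries lay at 15.0 to 21.5%, and the R1 library without n number was at 57.8%, like the progenitors. With that library as the only stem cells the difference was 2.11 points, and in R9 it was 13.5 points, both in the other direction and not called. Leading shares of Zrsr1 (91.7% in progenitors, 75.5% in stem cells) and Commd1 (87.4% and 68.8%) were lower in stem cells by under 20 points, with limma adjusted p of 0.00478 and 0.00866. The leading Zrsr1 model has 351 bases and 1 exon, with 55% A after its end, and whether it is a whole transcript was not tested. Shares are of TPM and not of reads, and the share of reads held by these short Nap1l4 and Zrsr1 models was not tested. Zrsr1 lies inside Commd1 on the other strand and exons of the pair overlap. Snrpn (88.7% and 91.5%) and Mest (63.4% and 60.4%) had shares whose differences were not called. The Gnas transcript ENSMUST00000109087 took a median of 33.4% of the Gnas TPM in R9 progenitors (highest 41.4%) and 1.81% in R10 progenitors (highest 3.57%), which differ in library preparation.

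Genes whose products set or guard imprints were read in the same comparison of stem cells with progenitors. Of 20 such genes (among them DNA methyltransferases, TET enzymes, ZFP57 and its partner TRIM28), 10 were called higher and 3 lower in R10 stem cells, where 45.8% of all genes were called (22.4% higher, 23.5% lower), and 9 higher and 2 lower in R9, where 36.0% were (17.6% higher, 18.4% lower). The higher ones in R10 were Dppa3, which protects maternal methylation in the zygote (5.84 ± 0.49, limma adjusted p = 4.18e-08), Zfp57 (4.42 ± 0.23, limma adjusted p = 1.38e-10), Dnmt3b (3.52), Dnmt3l (3.47), Tet2 (2.64), Eed (2.10), Tet1 (2.02), Uhrf1 (1.49), Setdb1 (1.33) and Ctcf (1.33). Tet3 (-2.10), Dnmt3a (-1.50) and Arid4a (-1.11) were lower. Of these, Setdb1, Ctcf, Tet3 and Dnmt3a were not called in R9. Trim28 (1.97) and Zfp445 (-1.15) were called in R9 and not in R10. Ctcf had 120 to 146 CPM in the numbered R10 stem cells but 59.8 in the R1 library without n number, against 31.4 to 57.6 in progenitors. In R9 Ctcf overlapped, at 126 and 106 CPM in stem cells against 94.2 to 121 in progenitors. The list's median was 1.15 in R10 and 0.69 in R9. The list was chosen with earlier results of these data known, so its shares beside those of all genes are a description and not a test. Among 6 companion genes tested in R10, 3 were called, a share near that of all genes. Igf2bp1, which binds the Igf2 RNA (5.52), and Zrsr2 (1.08) were higher, and Igf1r, the receptor that answers IGF2, was lower (-3.94 ± 0.25, limma adjusted p = 2.11e-09). Igf1r and Igf2bp1 were called in the same directions in R9 (-2.78 and 5.06).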

How the data were processed

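The 45 libraries were compared as deposited: gene values in CPM, made by the authors per the file headers (the tables are named for IsoQuant), and transcript values in TPM deposited by the authors for the same libraries. Shares of a gene's TPM in percent were computed here from the deposited TPM. Alignment with minimap2 2.24-r1122 and build mm10 is given per the submitters' processing notes, and whether counting used strand is not given in the sources used here. The CPM steps of the authors' table gave whole reads for 100.0% of 711452 values above 0, within 0.02 reads, and those reads were used for edgeR and DESeq2 as alternatives. Columns of 13 libraries that match no sample were not used, and 20 gene names had been turned into numbers or blanks. Positions are from GENCODE M21 (GRCm38) and promoters from RefSeq (GRCm38.p6).

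Comparisons used limma 3.58.1 in R 4.3.3 on log2(CPM + 1), keeping genes that reached 1 CPM in a number of libraries no lower than the size of the smaller arm, two-sided tests, and Benjamini-Hochberg adjustment over all genes tested. A gene was called at an adjusted p under 0.05 with a difference of at least 1; transcript shares were called at 20 points, in genes of at least 5 TPM. Media were compared with the pair as a block, systems with the day as a block. Alternatives were a pseudocount of 0.25, no filter or a filter of 5 CPM, quantile normalization, median centring, edgeR 4.0.16, DESeq2 1.42.0, other choices of arms, and leaving out libraries. On simulated reads of the stem cell comparison, limma recovered 100% of 4-fold and 35.8% of 2-fold changes in R10, and 92.5% and 25.4% in R9. A true 2-fold change lies just under 1 on the log2(CPM + 1) scale, so the threshold of 1 holds these 2-fold rates down whatever the spread. For the time course, with the change placed at day 20 alone, it recovered 52.2% of 4-fold and 0% of 2-fold changes. Changes that start earlier and last were not simulated. Changes were simulated only in genes of moderate or high mean CPM. The rates therefore do not cover low genes such as Zdbf2, Slc22a18 and Airn.

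All 43 genes are accounted for. Values by library or range are given for most genes called in a comparison, and for some the difference or the name alone. Full statistics are given for at most 10 of the largest differences per comparison, and the rest by count, range and highest value. The genes of other lists are named where called between R10 stem cells and progenitors. The members and lists were chosen with earlier results of these data known.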

Additional observations from a re-analysis of the deposited data

Results flagged for a closer look

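In groups of 4 to 7 libraries, 144 sets of values were tested for a library far from its group (Dixon's rule at 95%), and 17 were found. Of these, 9 stand above 3 reads and 8 at or under 3 reads. The rule's rate of 1 in 20 is for normally spread values. Sets with few reads or several libraries at 0 are not spread so, and the count was not weighed against chance. In R9 late serum, OKS at day 20 had 25.2 CPM of Peg3, where the other 3 libraries had 2.46 to 4.96, and 4.31 CPM of Zdbf2, where the others had 0. In the same group, OKS at day 14 had 6.62 CPM of Nap1l5 against 0 in the others, and 16.5 CPM of Qpct against 4.93 to 6.33. OKMS at day 14 had 186 CPM of Nap1l4 against 177 to 179. In R10 progenitors the OKS library had 67.8 CPM of Copg2 against 54.5 to 55.3. In R10 stem cells the first R1 library had 1.56 CPM of Slc22a18 (others 0 to 0.656), the R1 library without n number 1.87 CPM of Nnat (others 0 to 0.779), and the second O4G library 46.6 CPM of H13 (others 26.7 to 34.5).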

How the results depend on the processing

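Counts of imprinted genes called are given as alternative against main. Late serum against progenitors in R9 gave 11 with a minimum of 5 CPM and 7 with only OKMS and OKS progenitors, against 17. Media in R9 gave 6 with quantile normalization and 6 with DESeq2, against 11. Media in R10 (2) gave 0 with a pseudocount of 0.25, quantile normalization, DESeq2 or no pair block, 8 with no filter, 10 with a minimum of 5 CPM, and 9 with median centring or edgeR. 2i-LIF cells against stem cells in R9 (1) gave 0 with a pseudocount of 0.25, no filter, quantile normalization or day 20 alone, and in R10 (7) 4 with edgeR and 0 with O4G alone. Late serum against stem cells in R9 (1) gave 0 with no filter or edgeR, 2 with median centring or day 10 added, and 8 with DESeq2, and in R10 (14) 0 with O4G alone. Stem cell lines (4) gave 0 with the unnumbered R1 library, OKMS against OKS (8) 0 with no day block, the time course (12) 19 with edgeR, the chemistry test (0) 2 with quantile normalization, and transcript shares (1) 0 with only the unnumbered R1 library. The Nap1l4 share reversed to 2.11 points with that library and to 13.5 points in R9. The cause of these changes was not tested, and some alternatives also hold fewer libraries or genes. Counts of the alternatives, here and in the results above, were not set against those of all genes in the same fits.

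Leaving out libraries, pairs or days in turn gave 20 to 24 calls for stem cells against progenitors in R10 and 12 to 18 in R9. Late serum against progenitors gave 11 to 19 in R9 and 11 to 16 in R10, and media in R9 gave 7 to 13. 2i-LIF cells against stem cells gave 0 in every R9 fit and 5 to 9 in R10. Late serum against stem cells gave 0 to 9 in R9 and 11 to 15 in R10. Lines gave 2 to 5, wild-type serum 0 to 2, OKMS against OKS 5 to 12, the time course 2 to 11 and transcript shares 1 to 2. Where 1 library is left in an arm, it is assumed to vary like the other group; media in R10 without 1 pair could not be fitted. With the replicate block by Rep number, wild-type serum gave 12 calls (main 9), and with the block by n number the lines gave 4 (main 4). The numbers share no stated source: deviations of the wild-type pairs correlated at 0.474, and those of the line pairs at 0.161, 0.073 and 0.131.

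Of the alternative values of single genes, 6157 kept direction and side of the threshold, 345 fell below it, 147 passed it, 194 moved and 2 reversed. Of the counts with no library left out, 93 stayed within 1.5 times and 29 did not. Median centring moved the median of all genes from 0.01 to 0.24 for R10 stem cells against progenitors, and from -0.17 to 0.05 for R10 late serum. Quantile normalization gave 3 higher and 6 lower in wild-type serum (main 4 and 5). Depth limits genes near 1 to 3 reads, such as Usp29, Zdbf2 and Slc22a18.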
